A study of Homo sapiens with 9 samples.

Results

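The peaks described here lay in and around 5 genes that encode the proteins of chromatin loop formation: CTCF, ZNF143, RAD21, SMC3 and NIPBL. A peak belonged to a gene when it overlapped the gene body or the 20 kb on either side of it. In build hg19 the bodies are chr16:67596310-67673088 for CTCF, chr11:9482512-9550071 for ZNF143, chr8:117858173-117887105 for RAD21, chr10:112327449-112364392 for SMC3 and chr5:36876861-37065921 for NIPBL. RAD21 is read from the minus strand and the other 4 from the plus strand. Of 354101 peaks in 9 lists, 141 fell in these windows, and merging overlapping peaks across the lists gave 36 sites.

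All cells were HEC-1-B, a human uterine adenocarcinoma line, or lines derived from it. Binding was measured by ChIP-nexus, in which chromatin is immunoprecipitated and exonucleases then trim the DNA back to the edge of the bound protein. Wild-type cells gave a library each with antibodies to ZNF143, CTCF and RAD21. Cells labelled ZNF143KO gave CTCF and RAD21 libraries, and only the label vouches for the knockout, as their ZNF143 library was not analysed here. Cells labelled CTCF-AID, in which CTCF carries an auxin-inducible degron, gave CTCF and ZNF143 libraries after 0 h and 24 h in the auxin IAA (500 µM by the protocol). How much CTCF protein was left after auxin was not measured in these files. The labels do not say whether the derived lines are single clones. Each group held 1 library, so the differences between conditions have no replicate check and no p-value was computed.

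CTCF is a zinc finger protein that binds a long DNA motif in a set orientation and halts loop extrusion by cohesin. RAD21 and SMC3 are subunits of the cohesin ring, and NIPBL is the subunit of the loader that drives cohesin to extrude DNA. ZNF143 is a zinc finger activator that is best known at promoters, where it binds close to transcription start sites. The sites are therefore taken in the order promoters, flanks and gene bodies, and then by condition.

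The promoters are shown because ZNF143 had peaks at the hg19 starts of 3 genes. The sequences are RefSeq's for build GRCh38.p14, run 5′ to 3′ from 250 bases before the start to 50 after it, and were present for 4 of the 5 genes. Those of CTCF, ZNF143 and NIPBL had ZNF143 peaks at the start in hg19, and that of SMC3 had no peak of any list. Both strands were searched for a CTCF core (CC, 3 free letters, AG, 2 free letters, GGC) and for a pair of ZNF143 words, a long one (CCCA, 2 free letters, ATGC) and a short one (ACTACA). A word of the factor YY1 (CCGCCAT, 1 free letter, TTG) was added after the sequences had been seen. The motifs do not share letters in these 4 promoters, and capitals mark each match. Coordinates below are GRCh38.p14, all on the plus strand.
CTCF chr16:67562276-67562575: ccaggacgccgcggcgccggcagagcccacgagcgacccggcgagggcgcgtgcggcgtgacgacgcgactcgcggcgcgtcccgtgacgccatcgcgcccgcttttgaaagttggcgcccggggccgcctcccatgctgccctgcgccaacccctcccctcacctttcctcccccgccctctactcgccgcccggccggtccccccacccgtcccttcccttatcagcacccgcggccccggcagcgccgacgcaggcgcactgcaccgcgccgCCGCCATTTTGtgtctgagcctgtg
ZNF143 chr11:9460762-9461061: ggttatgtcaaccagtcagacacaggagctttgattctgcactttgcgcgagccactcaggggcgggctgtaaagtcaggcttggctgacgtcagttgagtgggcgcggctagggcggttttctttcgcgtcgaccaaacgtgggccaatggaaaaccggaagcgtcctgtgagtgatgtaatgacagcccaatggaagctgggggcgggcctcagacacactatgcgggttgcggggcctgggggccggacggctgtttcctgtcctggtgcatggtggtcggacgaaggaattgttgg
SMC3 chr10:110567445-110567744: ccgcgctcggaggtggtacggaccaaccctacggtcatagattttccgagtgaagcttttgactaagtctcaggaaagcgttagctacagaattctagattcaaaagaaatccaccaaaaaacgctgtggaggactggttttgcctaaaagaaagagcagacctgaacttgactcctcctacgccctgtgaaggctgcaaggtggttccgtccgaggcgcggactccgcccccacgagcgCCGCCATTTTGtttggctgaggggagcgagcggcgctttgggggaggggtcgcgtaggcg
NIPBL chr5:36876519-36876818: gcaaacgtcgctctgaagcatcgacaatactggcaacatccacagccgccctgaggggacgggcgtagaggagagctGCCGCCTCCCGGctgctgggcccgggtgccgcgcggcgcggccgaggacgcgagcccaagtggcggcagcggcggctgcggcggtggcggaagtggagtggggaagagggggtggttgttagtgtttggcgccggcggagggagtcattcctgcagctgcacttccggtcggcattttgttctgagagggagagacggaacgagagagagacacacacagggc

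The only CTCF core was in the NIPBL promoter, on the minus strand from -173 to -162, where negative positions lie before the start. It occurs in 10.6% of 27305 promoters of the same length. None of the 4 held the long ZNF143 word (1.76% of all promoters) or ACTACA (8.95%), which says only that these letters are not in these windows. The YY1 word (1.16% of all promoters) stood at 26 to 36 in CTCF and at -10 to 1 in SMC3. GC content was 75.3% in CTCF, 67.0% in NIPBL, 59.3% in ZNF143 and 56.0% in SMC3. Because the sequences and the peaks are from different builds, the letters could not be laid base by base under the summits. Positions in the sequences count from RefSeq's starts, and those of summits from the hg19 gene bodies. The 2 gene lengths differed by 127 bp at CTCF, 47 at ZNF143, 1410 at SMC3 and 584 at NIPBL. The starts may therefore not be the same base. Among 14 other genes, most of them of cohesin and its regulators and some relatives of CTCF and ZNF143, 10 had a promoter in the table. The CTCF core was in STAG1 and STAG2, which encode alternative cohesin subunits, and ACTACA in MAU2, the partner of NIPBL, and in WAPL, which releases cohesin from DNA. MAU2 also held the YY1 word, the only 1 of the 10 to do so. Peaks at those genes were not analysed here.

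ZNF143 had peaks at the starts of CTCF, ZNF143 and NIPBL in all 3 of its lists, and no factor had a peak within 1 kb of the starts of RAD21 or SMC3. Both wild-type and ZNF143KO lists of CTCF had a peak at those same 3 starts, and both RAD21 lists had one at CTCF and NIPBL. The 0 h CTCF list had one at CTCF and NIPBL, and the 24 h CTCF list at none of the 5. Gene starts of hg19 were not given in the sources used here, so the share of all starts with such peaks was not computed. Whether these counts are unusual for the lists is therefore not known. Levels are given below as summit reads, the number of reads piled up at the peak's highest point. They were recovered from the authors' fold enrichment and −log10 p. They carry exact 95% Poisson intervals for counting error only, and the highest count of each list, called its ceiling (42 to 88 reads), equalled 2 times its shortest peak in bp. Fold enrichment over local background, as deposited, is called signal. The libraries differed in depth, so read counts of different lists are not on one scale. Against wild type, background reads per kb in ZNF143KO were 2.19 times as high for CTCF and 3.35 times for RAD21. At 0 h they were 1.48 times as high for CTCF and 2.27 times for ZNF143.

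At CTCF the strongest promoter peak was ZNF143 alone, at chr16:67596204-67596437. It held 50 summit reads in wild type (37.1 to 65.9), 61 at 0 h (46.7 to 78.4) and 57 at 24 h (43.2 to 73.8), with summits at -4, -2 and 7 bp from the start. All 3 were close to the ceilings of 54, 62 and 58, so a change between them would be compressed. Their signals were 25.0, 21.9 and 22.9, between the 94.5th and 95.9th percentile of their lists. No CTCF or RAD21 peak overlapped this site in any list. A second site lay 0.4 kb inside the gene, at chr16:67596611-67596809, and there all 3 wild-type factors had peaks, with 11 reads for ZNF143, 22 for CTCF and 22 for RAD21. CTCF thus sat just within its own gene, and its peak there had 45 reads in ZNF143KO and 28 at 0 h, with no peak at 24 h. ZNF143 had no peak at this site at 0 h or 24 h. A further site, 0.4 kb upstream at chr16:67595872-67595973, had only ZNF143, with 19 reads at 0 h and 19 at 24 h.

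At its own gene ZNF143 had a pair of promoter peaks in every ZNF143 list, with weaker wild-type CTCF peaks under them. The site across the start, chr11:9482465-9482778, held 53 ZNF143 reads in wild type (39.7 to 69.3), 58 at 0 h (44.0 to 75.0) and 55 at 24 h (41.4 to 71.6). CTCF had 15 reads there in wild type (8.40 to 24.7), with its summit at 26 bp against 29 bp for ZNF143, and 17 in ZNF143KO. The site 0.3 kb before the start, chr11:9482125-9482312, held 35, 45 and 27 ZNF143 reads in wild type, at 0 h and at 24 h, and 16 CTCF reads in wild type against 22 in ZNF143KO. Neither site had a RAD21 peak in wild type or ZNF143KO, nor a CTCF peak in CTCF-AID cells. These were the 2 sites of the 36 where wild-type ZNF143 and CTCF met without RAD21. They made 2 of 15 wild-type ZNF143 peaks in the windows (13.3%, exact Clopper-Pearson 95% interval 1.66 to 40.5), against 2.13% of all wild-type ZNF143 peaks, a share inside that interval. The site 0.5 kb inside the gene, chr11:9483019-9483086, had only a ZNF143 peak at 0 h, with 20 reads. It was the only 0 h start peak of ZNF143 without a 24 h peak. The pattern of ZNF143 and CTCF without RAD21 was picked out after its values were seen. The position of the edit in the ZNF143KO cells is not given in the sources used here.

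At NIPBL the factors stood apart. ZNF143 peaked across the start, at chr5:36876773-36876920, with 14 reads in wild type (7.65 to 23.5), 23 at 0 h (14.6 to 34.5) and 30 at 24 h (20.2 to 42.8). CTCF and RAD21 shared a site 0.7 kb upstream, at chr5:36876045-36876192, with both wild-type summits at -760 bp. CTCF had 14 reads there in wild type, 33 in ZNF143KO and 13 at 0 h, and RAD21 had 17 in wild type and 27 in ZNF143KO. The ZNF143 intervals of the 3 lists overlap one another.

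**Figure D1:**
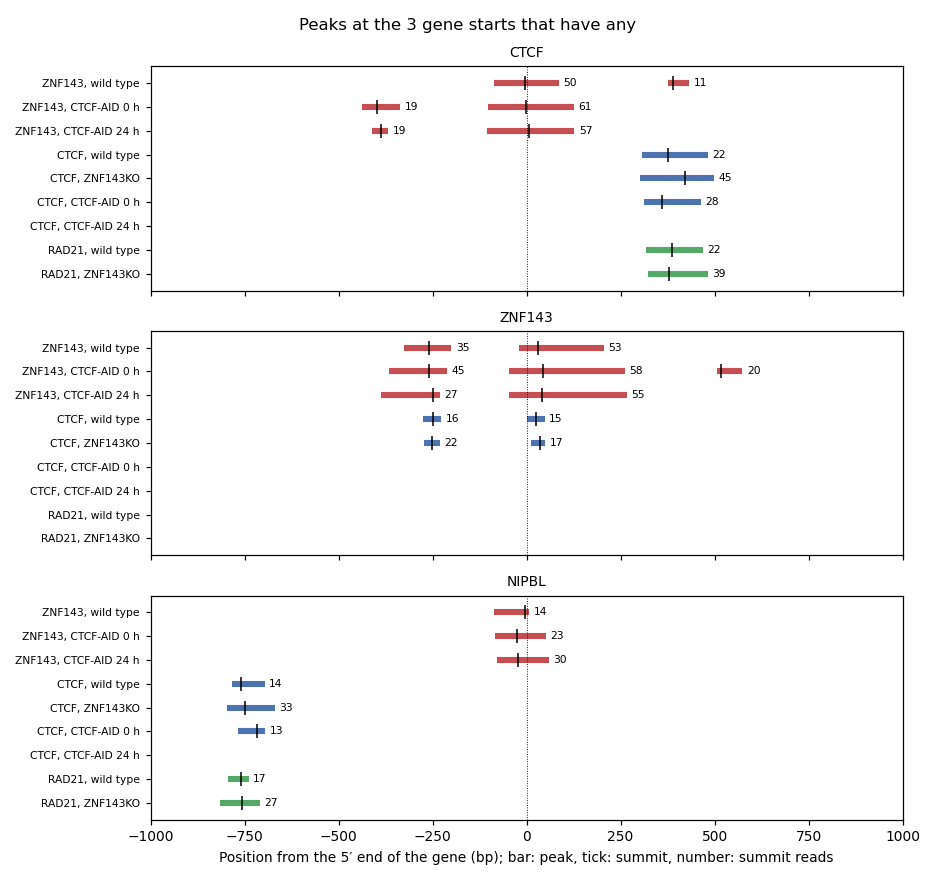
Peaks within 1 kb of the 5′ ends of CTCF, ZNF143 and NIPBL, by list; the x axis is distance from the 5′ end in bp, bars are peaks, ticks are summits and the printed numbers are summit reads. ZNF143 lies on all 3 starts, with CTCF under it at ZNF143, while the CTCF and RAD21 peaks at CTCF and NIPBL lie to one side.

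Away from the starts, most wild-type sites were occupied by CTCF with cohesin. There 14 of 18 CTCF peaks overlapped RAD21, and 14 of 14 RAD21 peaks overlapped CTCF. The shares given next cover the whole windows, starts included. All 16 wild-type RAD21 peaks in the windows overlapped a CTCF peak (100%, 79.4 to 100), against 82.8% of the whole RAD21 list. Conversely 16 of 22 CTCF peaks overlapped RAD21 (72.7%, 49.8 to 89.3), against 76.4% of all CTCF peaks. Of the 15 ZNF143 peaks, 12 overlapped CTCF (80.0%, 51.9 to 95.7), against 73.1% of the list, and 10 overlapped RAD21 (66.7%, 38.4 to 88.2), against 72.9%. The same 10 overlapped both, against 71.0% of the list, and 3 overlapped neither (20%, 4.33 to 48.1), against 24.9%. Each of these intervals held its whole-list share, so no share over the 5 genes stood apart from its list. By place, 9 of 10 ZNF143 peaks away from the starts overlapped RAD21 (90.0%, 55.5 to 99.7), and 1 of 5 at the starts did (20%, 0.505 to 71.6). The intervals overlap, the 5 start peaks lie on 3 promoters, and the difference was not tested.

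Sites where all 3 factors met carried most of the stronger CTCF peaks. There were 10 such sites, 3 upstream, 1 at a start, 3 in gene bodies and 3 downstream. Wild-type CTCF signal at them ran from 13.6 to 28.3 with a median of 22.5. At the 6 sites of CTCF and RAD21 without ZNF143 it ran from 6.97 to 15.6 (median 10.2), and at the 4 sites of CTCF alone from 7.86 to 13.4 (median 10.9). The first range meets the second between 13.6 and 15.6 and lies above the last. ZNF143 had 8 to 21 reads at the shared sites (median 10.5), the highest of them upstream of CTCF, at percentile 84.3 of its list. It had 35 to 53 at the promoter peaks of CTCF and ZNF143 without RAD21, and 14, within the range of the shared sites, at the start of NIPBL. In wild type the CTCF and RAD21 summits lay 0 to 37 bp apart at the 16 shared sites (median 12.5), and CTCF and ZNF143 summits 1 to 37 bp apart at 12 sites (median 11.5).

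**Figure D2:**
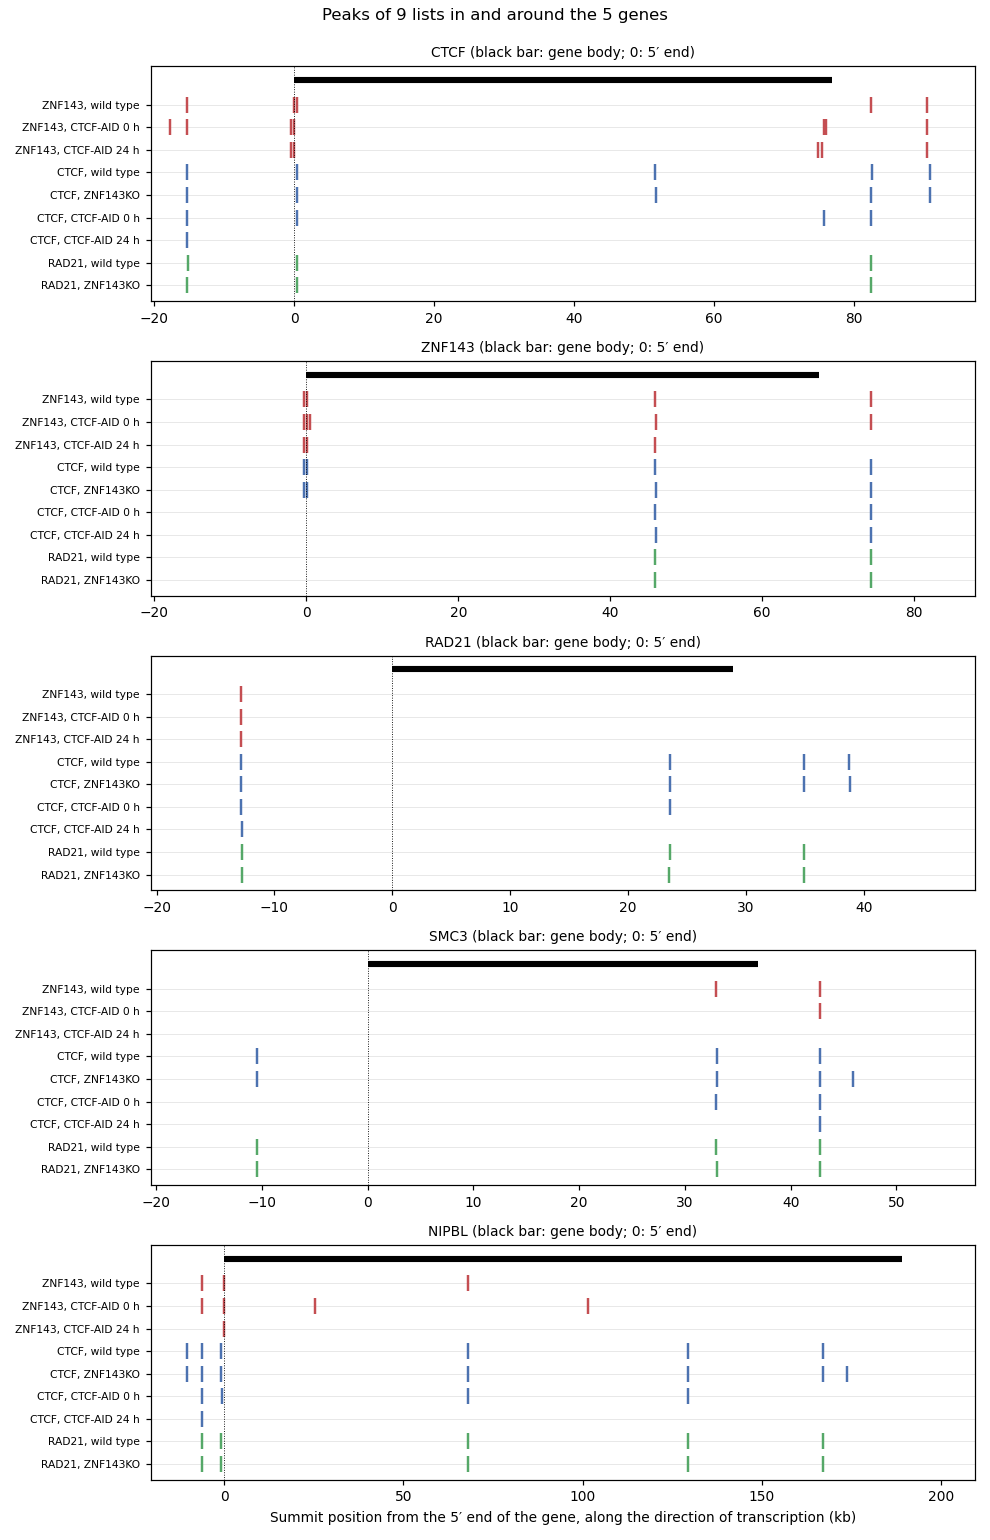
Summits of each list along the 5 genes; the x axis is distance from the gene's 5′ end in kb along the direction of transcription, the black bar is the gene body, and red, blue and green ticks are ZNF143, CTCF and RAD21 summits. RAD21 and SMC3 have no tick at the start, and each of the 5 windows has a site upstream or downstream with all 3 factors in wild type.

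Each gene had a leading CTCF site. For CTCF it lay 15.2 kb upstream, at chr16:67580923-67581205, with 44 CTCF reads, 32 RAD21 reads and 21 ZNF143 reads in wild type. For ZNF143 it lay in the body 46.0 kb from the start, at chr11:9528377-9528578, with 38, 41 and 14 reads in the same order. For RAD21 it lay 12.8 kb upstream, at chr8:117899790-117900053, with 40, 37 and 14 reads. The last 2 sites, at ZNF143 and RAD21, were the only ones with a peak in all 9 lists. For SMC3 it lay 5.9 kb past the 3′ end, at chr10:112370139-112370361, with 42, 41 and 17 reads. This was the highest CTCF signal of the windows, at the 98.5th percentile of its list, and the RAD21 peak was at the 99.9th. For NIPBL it lay 6.1 kb upstream, at chr5:36870588-36870855, with 29, 21 and 9 reads. NIPBL had the fewest CTCF reads of the 5 leading sites in wild type, but not in ZNF143KO (46, against 42 at ZNF143) or at 0 h (56, against 44 at ZNF143).

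The other sites were weaker or held fewer factors. ZNF143 was alone in wild type at 3 sites, 2 of them the promoter sites of CTCF and NIPBL. The other lay 13.7 kb past the 3′ end of CTCF, at chr16:67686702-67686827, with 20 reads in wild type, 35 at 0 h and 12 at 24 h. CTCF alone was found in wild type 51.6 kb inside CTCF, 14.1 kb past its 3′ end, 9.8 kb past the 3′ end of RAD21 and 10.4 kb before NIPBL, with 10 to 19 reads. CTCF and RAD21 met without ZNF143 at 6 sites, of which the one before NIPBL is given above. The strongest of these in CTCF signal lay 129.4 kb into NIPBL, with 20 CTCF reads and 16 RAD21 reads. The site 23.5 kb into RAD21 had 18 and 19, and the site 6.0 kb past its 3′ end had 14 and 5. The site 10.5 kb before SMC3 had 11 and 6, and the site 167.1 kb into NIPBL had 8 and 7.

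The remaining sites of all 3 factors were at CTCF, ZNF143, SMC3 and NIPBL. The site 5.7 kb past the 3′ end of CTCF had 28 CTCF, 20 RAD21 and 10 ZNF143 reads in wild type. The one 6.8 kb past the 3′ end of ZNF143 had 37, 21 and 8. The one 33.0 kb into SMC3 had 19, 23 and 8, and the one 68.1 kb into NIPBL 25, 7 and 9. RefSeq places RIPOR1 and CTCF-DT on the 5′ side of CTCF and CARMIL2 and ACD on its 3′ side, IPO7 and ZNF143-AS1 on the 5′ side of ZNF143, and NIPBL-DT and CPLANE1 on either side of NIPBL. Flanking sites may therefore lie at or in those genes, and none was assigned to them.

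**Figure D3:**
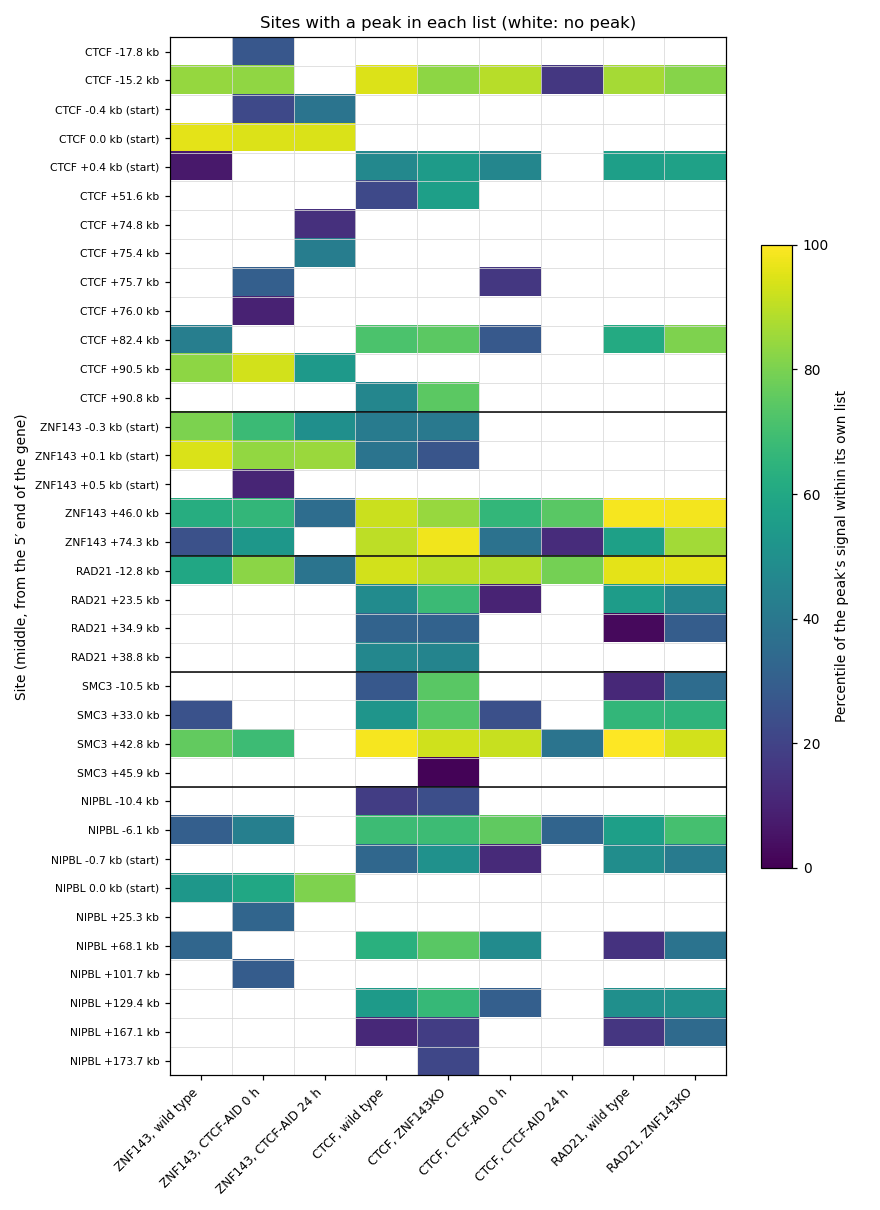
The 36 sites (rows, by gene and distance in kb of the site's middle from the 5′ end) in the 9 lists (columns); color is the percentile of the peak's signal within its own list and white is no peak. The 24 h CTCF column is filled at 6 rows, all of which have all 3 factors in wild type. The share of such sites filled at 24 h was not computed over the whole list.

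In ZNF143KO cells every wild-type CTCF and RAD21 peak of the 5 windows was still called. All 22 CTCF peaks were kept (100%, 84.6 to 100), where 94.0% of the whole list was. All 16 RAD21 peaks were kept (100%, 79.4 to 100), where 92.3% was. Both intervals hold the whole-list share. This included the 10 sites where ZNF143 met CTCF and RAD21 in wild type, and both CTCF peaks on the ZNF143 promoter. In the other direction 22 of 24 ZNF143KO CTCF peaks were found in wild type (91.7%, 73.0 to 99.0), against 78.4% of that list, and 16 of 16 RAD21 peaks (100%, 79.4 to 100), against 79.1%. The last share lies just outside its interval. The 2 CTCF peaks of ZNF143KO alone had 11 reads, 9.0 kb past the 3′ end of SMC3, and 14 reads, in NIPBL 173.7 kb from its start, where the peaks found in both lists had 14 to 48.

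Summit reads were higher in ZNF143KO at all of these sites, and so was the depth. The CTCF ratio of ZNF143KO to wild type ran from 1.07 to 3.27 over 22 sites (median 1.67, against 1.5 for all overlapping peaks). The RAD21 ratio ran from 1.07 to 3.2 over 16 sites (median 1.62, against 1.58). Background reads per kb were 2.19 times as high in the ZNF143KO as in the wild-type CTCF library and 3.35 times as high for RAD21. Scaled by these factors, the wild-type medians would be 41.7 reads for CTCF and 68.6 for RAD21. Those lie above the ZNF143KO medians of 35.5 and 32 at the same sites. The scaled counts reach 96.5 and 137, beyond the ZNF143KO ceilings of 50 and 44. The direction of any change in binding cannot be read from these counts. At 4 sites the ZNF143KO RAD21 count stood at its ceiling of 44, and at 7 sites the ZNF143KO CTCF count was 44 to 48 under a ceiling of 50. The ratios at these strong sites are therefore compressed. The ZNF143KO lists began at a −log10 q of 5.00 and the wild-type lists at 3.0 to 3.02. Summits of CTCF and RAD21 were a median of 12.5 bp apart in wild type and 13.5 bp in ZNF143KO. The distance was shorter in ZNF143KO at 6 sites and longer at 10.

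**Figure D4:**
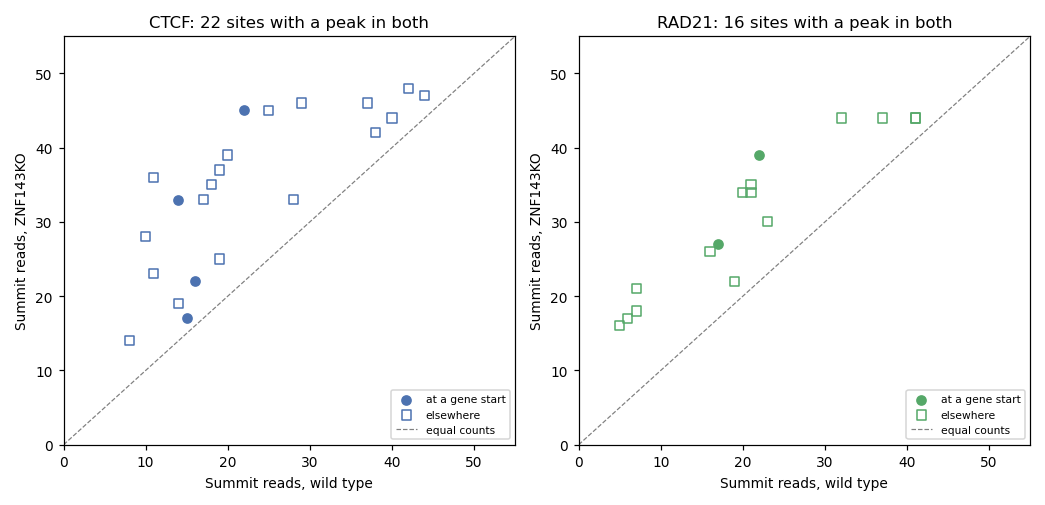
Summit reads in wild type (x axis) and ZNF143KO (y axis) at the 22 CTCF sites and 16 RAD21 sites with a peak in both; filled circles are sites at a gene start, open squares are elsewhere, and the dashed line marks equal counts. Every point lies above the line, in libraries whose background was 2.19 and 3.35 times as high in ZNF143KO.

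After 24 h of auxin, CTCF peaks remained at 6 of the 14 sites with a 0 h peak (42.9%, 17.7 to 71.1), where 44.4% of the whole list did. The 6 were the leading CTCF site of each gene and the site 6.8 kb past the 3′ end of ZNF143, so each window kept at least 1. No CTCF peak remained at a start: the peak 0.4 kb inside CTCF (28 reads at 0 h) and the one 0.7 kb before NIPBL (13 reads at 0 h) were both without a 24 h peak. All 6 were sites where the 3 factors met in wild type, of 10 such sites with a 0 h CTCF peak. The kept share of such sites was not computed over the whole list, and they carried most of the stronger wild-type CTCF peaks. By 10 equal groups of 0 h signal, 5.14 to 97.2% of the whole 0 h CTCF list was kept. At the kept sites reads fell from 50 to 6 upstream of CTCF, from 44 to 12 in ZNF143, from 23 to 6 past the 3′ end of ZNF143, from 60 to 13 upstream of RAD21, from 53 to 8 past SMC3 and from 56 to 8 upstream of NIPBL. The 24 h count was lower at each of the 6, and the 95% intervals of the 2 times did not overlap. The ratios ran from 0.12 to 0.273 (median 0.184), near the 0.190 of all overlapping peaks. All 6 of the 24 h CTCF peaks were at 0 h sites, as were 99.1% of that list.

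The 24 h CTCF library was shallower, with 0.304 times the background reads per kb of the 0 h library. Scaled by that factor, the 0 h counts of the 6 kept sites would be 6.99 to 18.2 reads, and those of the 8 others 3.34 to 10.6, where the lowest count in the 24 h list is 4. By this factor per kb, the observed 24 h count was below its scaled value at all 6 sites. Upstream of CTCF (6 reads, 2.2 to 13.1), past SMC3 (8 reads, 3.45 to 15.8) and upstream of NIPBL (8 reads, 3.45 to 15.8) the scaled values of 15.2, 16.1 and 17.0 lay above the interval of the 24 h count. At the other 3 they lay inside it. The error of the 0 h count was not added to this comparison. Nor was the length over which summit reads pile up, as the shortest peak was 44 bp at 0 h and 24 bp at 24 h. The most frequent local background was 0.561 expected reads at 0 h and 0.093 at 24 h. That gap is wider than the one per kb. The scaled values therefore cannot show whether CTCF reads at these sites fell by more than the depth. The 8 sites without a 24 h peak were the 2 at the starts of CTCF and NIPBL, those 68.1 and 129.4 kb into NIPBL (35 and 19 reads at 0 h), 33.0 kb into SMC3 (16), 23.5 kb into RAD21 (11) and 5.7 kb past CTCF (15), and 1 near the 3′ end of CTCF (17). They had 11 to 35 reads at 0 h (median 16.5), and the kept sites 23 to 60 (median 51.5). At this depth the loss of the weaker peaks and the lower sampling cannot be told apart. When the whole 0 h list was split into 10 equal groups by signal, 26.2% of peaks were kept in the group of the site 0.4 kb inside CTCF and the site 68.1 kb into NIPBL, neither of which was kept. In the group of the site past ZNF143, which was kept, 10.2% were. The leading CTCF sites, all kept, lay in groups of which 67.1 to 97.2% were kept, so most peaks of their signal were kept over the whole list.

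The starts of CTCF, ZNF143 and NIPBL each had a ZNF143 peak at both times of auxin, and most 0 h peaks elsewhere were not called at 24 h. Of 18 peaks at 0 h, 8 were kept at 24 h (44.4%, 21.5 to 69.2), where 43.2% of the list was. In the other direction 8 of 10 peaks at 24 h had a 0 h peak (80.0%, 44.4 to 97.5), against 91.9% of that list. At the starts 5 of 6 were kept (83.3%, 35.9 to 99.6), and away from them 3 of 12 (25.0%, 5.49 to 57.2). The 2 intervals overlap, peaks on 1 promoter are not independent of each other, and the difference was not tested. Median 0 h signal was also higher at the starts, 12.7 against 9.97 elsewhere. Over the whole list 96.7% of the strongest group by signal was kept and 23.2% of the weakest. Kept shares at starts and elsewhere were not computed over the whole list. At 0 h 7 of the 18 lay on a CTCF peak (38.9%), against 56.1% of the list. Of these 2 of 7 were kept (28.6%, 3.67 to 71.0), where 31.9% of such peaks in the list was. Of the others 6 of 11 were kept (54.5%, 23.4 to 83.3), where 57.6% was. None of the 6 start peaks overlapped a 0 h CTCF peak, so all 7 peaks on CTCF lay away from the starts. Of the 5 peaks away from the starts without CTCF, 1 was kept (20%, 0.505 to 71.6), the one past the 3′ end of CTCF. That interval overlaps those of the start peaks and of the peaks on CTCF.

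At the 5 start sites with ZNF143 at both times, the counting intervals of the 2 times overlapped. The strong peaks on the starts of CTCF and ZNF143 stood close to the ceilings of 62 and 58 at both times, so their counts cannot show whether binding changed. The other 3 start sites were below the ceilings. The site 0.3 kb before ZNF143 went from 45 reads (32.8 to 60.2) to 27 (17.8 to 39.3), a ratio of 0.60, the site 0.4 kb before CTCF had 19 at both times, and the start of NIPBL had a ratio of 1.3. The 24 h library had 0.893 times the background of the 0 h one. Away from the starts the 3 kept peaks had ratios of 0.343 to 0.476. They fell from 35 to 12 reads past the 3′ end of CTCF, from 30 to 11 upstream of RAD21 and from 21 to 10 inside ZNF143, and the intervals of the 2 times were apart at the first 2 of these. The median over the 8 kept sites was 0.767, against 0.727 for all overlapping peaks. The site upstream of CTCF lost its ZNF143 peak from 28 reads, in a group by signal of which 81.0% was kept. The start of NIPBL kept its peak in a group of which 35.4% was. Local background, which is part of the signal, was also higher at starts, at 1.03 to 2.41 expected reads at the summit against 0.42 to 1.31 elsewhere in the 0 h list. The part of that difference in the kept shares was not tested.

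**Figure D5:**
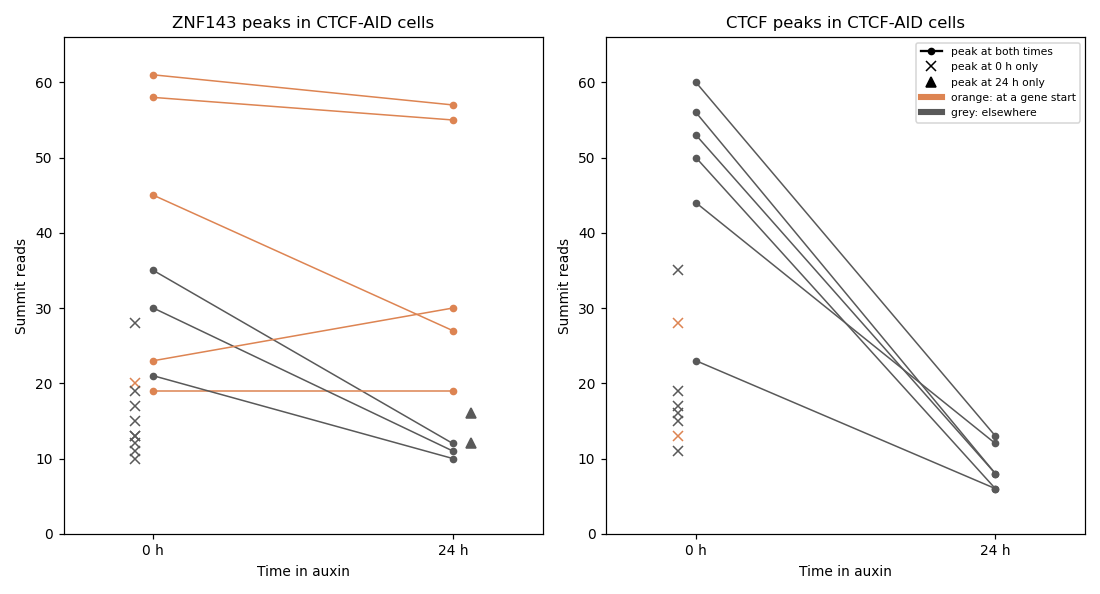
Summit reads at 0 h and 24 h of auxin (x axis) for ZNF143 and CTCF in CTCF-AID cells; lines join sites with a peak at both times, crosses are sites with a 0 h peak only, triangles with a 24 h peak only, orange is at a gene start and grey elsewhere. The 6 CTCF lines end at 6 to 13 reads, and the 5 orange ZNF143 lines end at 19 to 57.

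The cell lines also differed without auxin. Of 22 wild-type CTCF peaks 13 were found at 0 h in CTCF-AID cells (59.1%, 36.4 to 79.3), against 55.1% of the list, and of 15 ZNF143 peaks 11 (73.3%, 44.9 to 92.2), against 73.1%. In reverse, 13 of 14 CTCF peaks at 0 h were found in wild type, against 95.6% of that list, and 11 of 18 ZNF143 peaks, against 76.8%. The CTCF peaks of wild type that were found at 0 h held 14 to 44 reads (median 28) and the others 8 to 19 (median 14). All 10 sites of the 3 factors had a CTCF peak at 0 h, and so did 3 of the 6 sites of CTCF and RAD21. None of the 4 sites of CTCF alone and neither site on the ZNF143 promoter did. Shares by these classes were not computed over the whole list. The classes also differed in wild-type CTCF signal, with medians of 22.5, 10.2, 10.9 and 11.8 in the same order. By 10 equal groups of signal, 9.93 to 98.9% of the whole wild-type CTCF list was found at 0 h. The 4 wild-type ZNF143 peaks without a 0 h peak had 8 to 11 reads. The 0 h CTCF background was 1.48 times, and the ZNF143 background 2.27 times, that of wild type.

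A cluster near the 3′ end of CTCF appeared only in CTCF-AID lists. Between chr16:67671097-67672282, a span of 1186 bp that ends 0.8 kb before the 3′ end, 4 sites held 5 peaks. Of these 2 were ZNF143 at 0 h, 2 were ZNF143 at 24 h and 1 was CTCF at 0 h, with 12 to 17 reads each. None of the 5 wild-type and ZNF143KO lists had a peak there. Both 24 h ZNF143 peaks without a 0 h peak in the windows belonged to it. Local background under the 5 peaks was 2.31 to 3.13 times the most frequent value of the list, at percentiles 63.2 to 83.8 of the list's peaks. The CTCF gene is altered in these cells by their label, where the tag stands is not given in the sources used here, and a relation to it was not tested. Without this cluster, a choice made after seeing the data, 6 of 13 0 h CTCF peaks (46.2%) and 8 of 16 ZNF143 peaks (50%) were kept at 24 h. The other 7 sites with no wild-type peak were scattered over CTCF, ZNF143, SMC3 and NIPBL. Of these, 2 had only a ZNF143KO CTCF peak, at SMC3 and NIPBL. The rest were, like the cluster, found only in CTCF-AID lists.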

How the data were processed

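ChIP-nexus peaks of 9 libraries were analysed as deposited, 1 list per library. The submitters' processing notes name cutadapt 2.10, Bowtie2 2.3.5.1, SAMtools 1.12, MACS2 2.2.7.1, deepTools and the build hg19 (GRCh37). Control libraries, filters and pooling are not given in the sources used here. Per the file layout, the authors deposited for each peak a fold enrichment (a ratio), its −log10 p and −log10 q, and a score, which for nearly all peaks is 10 times the −log10 q without its decimals. Ratios describe and rank peaks within a list.

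Summit reads were recovered from the deposited ratio and −log10 p, assuming a Poisson test with 1 added to reads and background. A whole number fitted within 0.002 for 100% of peaks in each list. Background reads per kb, 3.88 to 26.1, are the most frequent local background divided by the shortest peak. PCR reads are not independent molecules, so intervals and limits cover counting error only.

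Peaks were shared when they overlapped by at least 1 bp, sites were peaks merged across lists, and a start is 1 kb on each side of the 5′ end. Whole-list shares used chromosomes 1 to 22 and X. All sites were described, singly or in counts. Values were given for start sites, many sites that differed by condition and each gene's highest wild-type CTCF signal. Genes and lists were chosen with earlier results of these data known. Scripts ran in Python 3.11.15, with pandas 2.3.3 and scipy 1.17.1, and were tested on simulated peaks. Exons and introns were not analysed here.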

Additional observations from a re-analysis of the deposited data

How the results depend on the processing

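Of 87 values under alternative settings, 67 were counted as close to those reported and 20 as moved. Some of these outcomes were set in advance. A −log10 q of at least 5 could not change the ZNF143KO lists, which began at 5.00. Leaving out the flanks could only lower a peak count. A share was counted as moved when it left the 95% interval of the reported value, and a count when it changed by over 1.5 times. These intervals are wide: with a reciprocal overlap of 50%, 5 of 18 0 h ZNF143 peaks were kept at 24 h (27.8%, 31.1% of the list). At that overlap 14 of 16 RAD21 peaks were kept in ZNF143KO (87.5%, 81.4% of the list). In wild type 14 of 22 CTCF peaks then met RAD21 (63.6%, 65.6% of the list). All of these were counted as close. With that overlap 1 of 14 0 h CTCF peaks was kept at 24 h (7.14%, 6.89% of the list), where 0 h peaks were 136 to 268 bp wide at kept sites and 24 h peaks 38 to 107 bp, and 5 of 15 wild-type ZNF143 peaks met CTCF (33.3%, 44.1% of the list). With both lists reduced to the shorter list's size, 5 of 5 CTCF peaks (100%, 80.5% of the list) and 7 of 10 ZNF143 peaks (70.0%, 65.2% of the list) were kept at 24 h, and 12 of 14 wild-type CTCF peaks (85.7%, 82.9% of the list) were found at 0 h. In gene bodies only, 1 of 7 CTCF peaks was kept at 24 h (14.3%), beside 44.4% of the list. The list was not limited to gene bodies, so the share in all gene bodies is not known.

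Gene bodies alone held 7 ZNF143, 9 CTCF and 7 RAD21 peaks in wild type, 10 CTCF and 7 RAD21 peaks in ZNF143KO, 9 ZNF143 and 7 CTCF peaks at 0 h, and 6 ZNF143 peaks and 1 CTCF peak at 24 h. With starts taken as 250 bp on each side, CTCF was at 1 gene start in wild type and 1 in ZNF143KO and at 0 at 0 h, and RAD21 at 0 in both cell types. The 3 ZNF143 starts were the same in number, and 5 kb moved no count. No paired analysis was possible because each group held 1 library without a replicate number. Weak peaks are limited by depth, most of all in the 24 h CTCF list.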
